A study of Rattus norvegicus with 24 samples.

Results

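The ligands, receptors and Smads of the transforming growth factor-beta (TGF-beta) pathway were followed in the left kidneys of 24 cystic rats. The 10 genes were Tgfb1, Tgfb2, Tgfb3, Tgfbr1, Tgfbr2, Smad2, Smad3, Smad4, Smad6 and Smad7, matched by symbol to their rat Entrez identifiers among the 17334 genes measured, and all 10 passed the filter on low counts. In this pathway a secreted ligand, released from a latent complex in the extracellular matrix, brings together a type II and a type I receptor kinase. The type I receptor phosphorylates Smad2 and Smad3, which join Smad4 and act on transcription in the nucleus, while Smad6 and Smad7 restrain the signal. In the kidney the pathway is best known for driving fibroblast activation and matrix deposition.

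All animals were male PKD/Mhm (Cy/+) rats, a strain heterozygous for a mutation that gives renal cysts, taken at 8 months of age. Each group held 6 animals. The Ctrl animals were untreated. The other groups were treated monthly for 6 months with human skin-derived ABCB5+ stromal cells given intraperitoneally (i.p. ABCB5+) or intravenously (i.v. ABCB5+), or with CoCM, the supernatant of ABCB5+ cells cultured together with stimulated THP-1-derived macrophages. The descriptions of the study differ on whether CoCM was given by the i.p. or the i.v. route. The genotype was assigned by abdominal palpation, and no non-cystic animal was analysed here. Ctrl animals bore numbers up to 24 and treated animals numbers from 26 to 43, so any effect of the order of numbering cannot be told apart from treatment.

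Whole kidney RNA was sequenced to between 9304666 and 14125510 estimated counts per animal. In such bulk tissue, fewer cells of a type and less RNA per cell cannot be told apart. Between animals, levels are given in CPM (counts scaled to the library total after TMM adjustment), and between genes as TPM, which also accounts for transcript length. On the first principal component, which held 56.3% of the variance, 4 animals stood apart, with scores of 80.8 to 97.4 against -53.01 to 11.53 in the other 20. They were CoCM animal 39, i.p. animal 38 and i.v. animals 36 and 37. The summed TPM of 11 injured tubule markers was 685 to 1079 in these animals and 7941 to 16210 in the others. Their summed macrophage markers were at 75.8 to 193 against 395 to 1083, and their summed fibroblast and myofibroblast markers at 245 to 333 against 438 to 1701. Estimates of the treatment comparisons without these animals are given beside those of all 24.

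The promoters below are those of Tgfb1, the most abundant member, and of both receptors and Smad3, which varied together across animals. Smad4, the other gene that varied with them, is described without its sequence. Each sequence is the 250 bases before the annotated start in RefSeq (rat assembly GRCr8), with GC boxes, GGGCGG or CCGCCC, in capitals. Tgfb1 lies at chr1:90324062-90324311 on the plus strand, Tgfbr1 at chr5:66449148-66449397 on the plus strand, Tgfbr2 at chr8:124761470-124761719 on the minus strand, and Smad3 at chr8:73132325-73132574 on the minus strand.
Tgfb1: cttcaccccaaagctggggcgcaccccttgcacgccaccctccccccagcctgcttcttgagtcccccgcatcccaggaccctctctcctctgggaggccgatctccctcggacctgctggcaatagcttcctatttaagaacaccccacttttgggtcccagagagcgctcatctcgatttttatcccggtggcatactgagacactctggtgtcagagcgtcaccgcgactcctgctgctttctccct
Tgfbr1: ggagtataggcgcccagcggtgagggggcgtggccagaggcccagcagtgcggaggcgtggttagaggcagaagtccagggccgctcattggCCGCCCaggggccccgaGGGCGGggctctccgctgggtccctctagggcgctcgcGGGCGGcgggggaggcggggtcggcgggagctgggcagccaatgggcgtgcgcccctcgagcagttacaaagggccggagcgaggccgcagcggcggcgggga
Tgfbr2: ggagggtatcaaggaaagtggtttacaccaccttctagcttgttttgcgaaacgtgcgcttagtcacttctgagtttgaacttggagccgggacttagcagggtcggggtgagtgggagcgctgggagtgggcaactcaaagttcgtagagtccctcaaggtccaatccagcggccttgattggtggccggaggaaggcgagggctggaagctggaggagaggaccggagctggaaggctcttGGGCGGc
Smad3: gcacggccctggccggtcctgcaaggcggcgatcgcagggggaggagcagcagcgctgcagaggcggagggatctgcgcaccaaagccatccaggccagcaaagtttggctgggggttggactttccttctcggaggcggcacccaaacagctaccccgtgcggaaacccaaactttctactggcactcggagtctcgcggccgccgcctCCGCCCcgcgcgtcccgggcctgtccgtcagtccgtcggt
A window was found for 9 of the 10 genes, Smad6 being the exception. The GC box, the sequence that Sp1-type factors bind, was found in the windows of 5 of these 9 genes, against 30.5% of all 33469 windows searched on both strands. The 5 genes were Tgfbr1, Tgfbr2, Smad2, Smad3 and Smad7. The windows of the 3 ligands and of Smad4 held 0 GC boxes. The window of Smad4 had the lowest GC content, and whether it holds the promoter in use in the kidney was not tested. Its lack of a GC box therefore does not settle whether the genes that varied together share one. Within the 4 sequences shown, Tgfbr1 held 3 GC boxes, Tgfbr2 and Smad3 held 1 each, and Tgfb1 held 0. Over all windows of these 9 genes the GC content ran from 30.8% for Smad4 to 82.8% for 1 of the windows of Smad2. Among the 4 shown it ran from 58.0% for Tgfbr2 to 75.6% for Tgfbr1, against a median of 51.2% over all 33469 windows. The Smad box CAGACA (17.2% of all windows), the cAMP response element TGACGTCA (1.59%) and the AP-1 site TGAGTCA (4.05%), each read on both strands, were in the window of 0 of the 9 genes. The TATA box TATAAA, in 12.9% of windows, was found in that of Smad4.

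Per transcript length, Tgfb1 had the highest level of the 10 genes, with a median over the 24 animals of 134.9 TPM (range 30.8 to 217). Its median lay above those of 90.9% of the genes tested. Smad4, the common partner of the receptor-activated Smads, followed at 47.9 TPM (32.3 to 66.6), and the type II receptor Tgfbr2 at 47.5 TPM (18.8 to 95.8). These latter genes could not be ordered, since Smad4 was above Tgfbr2 in 12 of the 24 animals. The next 6 genes lay close together. Their medians were 24.6 TPM for Smad7, 24.5 for Tgfb2, 24.3 for the type I receptor Tgfbr1, 22.3 for Smad2, 21.1 for Smad3 and 21.0 for Smad6. Tgfb3 was lowest at 17.7 TPM (3.53 to 44.6). The ranges of all neighbours in this order overlapped, and the step from Tgfb1 to Smad4 was kept in 22 of 24 animals.

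**Figure D1:**
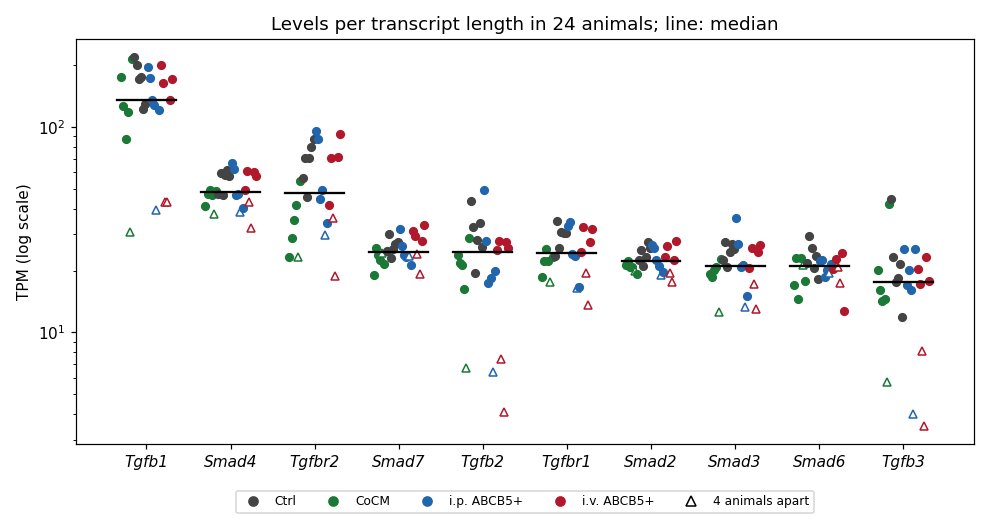
Level of each of the 10 genes in TPM on a log scale, 1 point per animal coloured by group, with a line at the median of 24 animals and open triangles for the 4 animals that stood apart. Tgfb1 sits highest at a median of 134.9 TPM, and the triangles lie lowest for the 3 ligands.

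The spread between animals differed widely among the genes. Over the 20 animals that did not stand apart, the coefficient of variation of CPM was 43.2% for Tgfb3, 33.3% for Tgfbr2, 29.02% for Tgfb2 and 24.6% for Tgfb1. It was between 7.15% for Smad2 and 16.9% for Smad6 in the other genes. The Smads and Tgfbr1 could therefore be compared between groups with narrower intervals than the ligands and Tgfbr2.

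The ligands were the members that marked the 4 animals apart. Tgfb1, the main profibrotic ligand, reached 34.1 CPM in animal 39 of the CoCM group, 45.8 in animal 38 of the i.p. group, and 47.6 and 53.5 in animals 36 and 37 of the i.v. group, against 88.7 to 229.5 in the other 20 animals. Tgfb2 was at 15.9, 16.0, 17.6 and 10.97 CPM in the same order of animals, against 33.6 to 98.1. Tgfb3 was at 12.3, 9.09, 17.4 and 8.55 CPM, against 21.6 to 91.1. All 4 animals thus lay below all of the other 20 for each of the 3 ligands and for 0 of the other 7 members. The same was seen for 14.18% of the 12778 genes tested, and 10.03% had all 4 animals above the rest. These animals were chosen by their expression, so these values describe them and carry no test.

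The receptors and Smads overlapped between the 4 animals and the rest. Tgfbr2 was at 35.3 to 59.5 CPM in the 4 animals and 36.8 to 130.3 in the others, and Tgfbr1 at 75.4 to 94.8 against 78.0 to 134.9. Smad2, Smad6 and Smad7 of the 4 animals were within the range of the others. Of the matrix and contractile targets of the pathway, 14 of 20 had all 4 animals below the rest. Among these, Col1a1, a fibrillar collagen chain, was at 34.6 to 100 CPM against 151.6 to 730.4, and Fn1, fibronectin, at 51.9 to 95.5 against 107.4 to 593.1. Of all 88 other pathway genes tested, 28 had the 4 animals below the rest and 3 had them above. The 3 higher genes, named after their values were seen, were the pseudoreceptor Bambi (58.7 to 68.7 against 25.96 to 46.28 CPM) and the bone morphogenetic proteins Bmp4 (78.3 to 122.6 against 32.8 to 55.3) and Bmp7 (145.3 to 192.7 against 101.5 to 131.2).

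**Figure D2:**
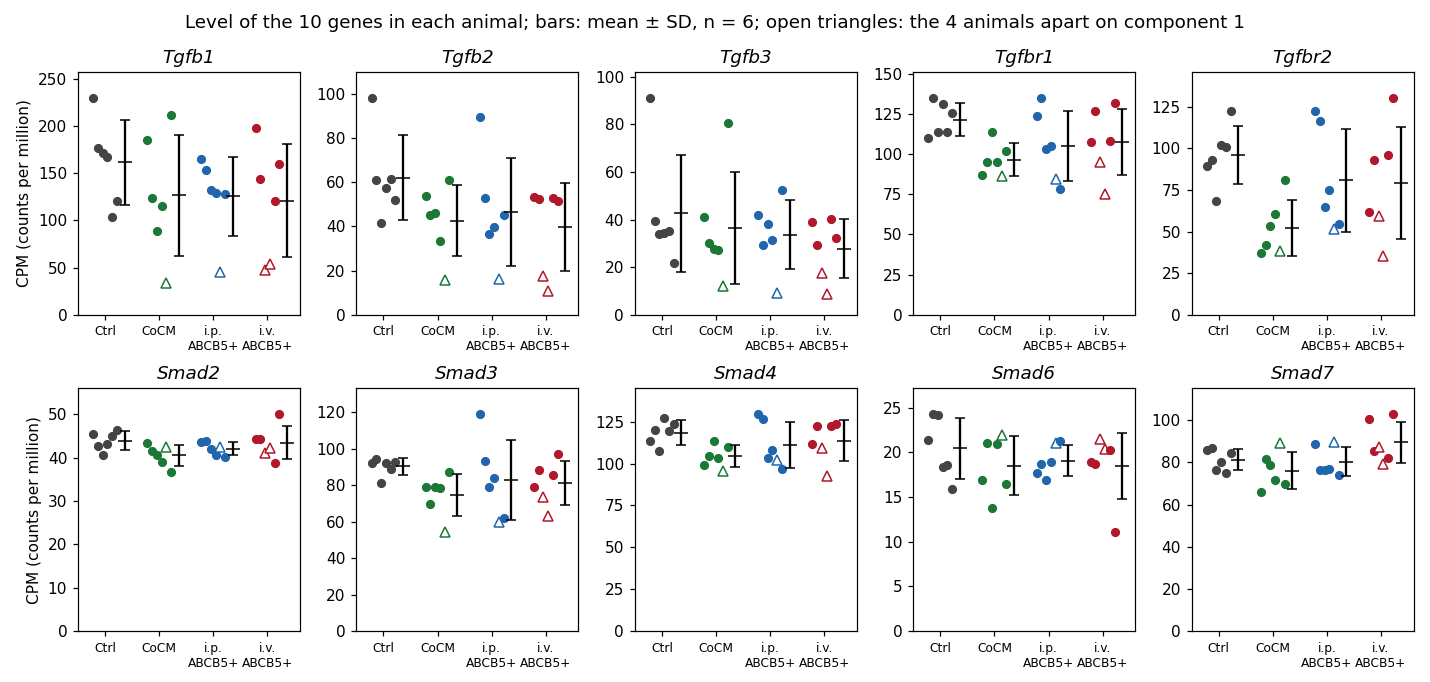
Level of each gene in CPM in every animal, by group, with the mean ± SD of 6 animals and open triangles for the 4 animals that stood apart. The triangles lie below all other points for Tgfb1, Tgfb2 and Tgfb3, and 5 of 6 CoCM animals lie below the Ctrl range for Tgfbr2, Tgfbr1 and Smad3. The share of all genes with so many CoCM animals below the Ctrl range was not computed.

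Treatment was then compared with Ctrl, gene by gene, with the edgeR quasi-likelihood test adjusted by Benjamini-Hochberg over all 12778 genes. None of the 10 genes passed an adjusted p of 0.05 under any of the 3 treatments, and over all genes the share called was 0.00783% with CoCM, 0.0% with i.p. cells and 0.0% with i.v. cells. At an unadjusted p under 0.05, 3 members were lower with CoCM, where 11.9% of all genes passed in either direction, 5.97% were lower and 5.96% higher. With i.p. ABCB5+ 0 of the 10 passed against 1.77% of all genes (0.509% lower and 1.26% higher), and with i.v. ABCB5+ 0 passed against 5.78%. An F-test over all 4 groups called 0 members and 0.0% of all genes, and at an unadjusted p under 0.05 it passed 1 member, Tgfbr2 (adjusted p = 0.817 in edgeR), against 4.71% of all genes. The 3 comparisons share the Ctrl animals and are not independent of each other.

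With CoCM the receptors had the smallest edgeR p of the members, while by the exact permutation test Smad3 ranked level with Tgfbr2 and ahead of Tgfbr1. Tgfbr2, the type II receptor that binds the ligand first, was at 68.5 CPM in the lowest Ctrl animal, 96.8 at the median and 122.3 in the highest. With CoCM it was at 36.8, 47.8 and 80.7 CPM. The groups overlapped through CoCM animal 40 alone, and the other 5 CoCM animals lay below every Ctrl animal. For this and the later counts of animals below the Ctrl range, the share over all genes was not computed. The means were 95.98 ± 17.65 CPM (SD, n = 6) in Ctrl and 52.05 ± 16.8 CPM (SD, n = 6) with CoCM, a log2 fold change of -0.88 ± 0.28 (SE; 95% interval -1.45 to -0.31). The unadjusted p was 0.00397 and the adjusted p 0.298 (edgeR), and an exact permutation test of both groups' animals (two-sided) gave 0.00433. Without the 4 animals apart the log2 fold change was -0.82 ± 0.24 (adjusted p = 0.216).

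The call for Tgfbr2 differed between fits. With limma voom and sample quality weights the log2 fold change was -0.86 and the adjusted p 0.0472, in a fit that called 184 genes. Over the 9 alternative fits the adjusted p ran from 0.0472 to 0.490.

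Tgfbr1, the type I receptor that carries the signal to the Smads, ran from 109.7 to 134.9 CPM in Ctrl, with a median of 119.8. With CoCM it ran from 86.3 to 113.5 CPM, with a median of 95.1, and 5 of 6 animals lay below the Ctrl range. The log2 fold change was -0.33 ± 0.13 (SE, n = 6 per group), with an unadjusted p of 0.0184 and an adjusted p of 0.370 in edgeR, and an exact permutation p of 0.00649. It was -0.31 ± 0.11 without the 4 animals apart.

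Several cell type marker lists had lower estimates beside these receptors. The summed TPM of 7 endothelial markers was 298 to 367 in Ctrl and 156 to 339 with CoCM (medians 342.9 and 265.7; exact permutation p = 0.0303). All 7 had a lower mean fold change, 4 of them at an unadjusted p under 0.05 and 0 at an adjusted one. The 6 markers of vascular smooth muscle and pericytes summed to 205 to 295 TPM in Ctrl and 137 to 229 with CoCM (medians 241.2 and 174.8; exact permutation p = 0.0152), and all 6 were lower, 2 of them at an unadjusted p under 0.05. The 9 fibroblast and myofibroblast markers summed to 604 to 1701 TPM in Ctrl and 245 to 1495 with CoCM (exact permutation p = 0.126), and 8 of 9 were lower by sign, at a median log2 fold change of -0.59. Those of macrophages, 9 genes, summed to 494 to 1083 TPM and 75.8 to 1069 (exact permutation p = 0.219), and all 9 were lower by sign, at a median of -0.56. The lowest sum of both lists was that of animal 39, which stood apart. All 4 thick ascending limb, 5 principal cell and 5 intercalated cell markers were higher by sign, at medians of 0.33, 0.35 and 0.43. None of these lists held a gene with an adjusted p under 0.05 or a defining marker at 0. The permutation p-values of the sums were not adjusted over the marker lists tried. The sums are in TPM, and on the log2(TPM + 1) scale the median log2 fold change of all genes with CoCM was -0.097. The part of these lists in the differences of the members and of the matrix targets was not tested.

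Among the Smads, Smad4 was at 107.3 to 127.4 CPM in Ctrl (median 119.8) and 95.6 to 113.6 with CoCM (median 103.9). With CoCM, 4 of 6 animals lay below the Ctrl range, and the log2 fold change was -0.18 ± 0.08 (edgeR p = 0.0337, adjusted p = 0.395; exact permutation p = 0.0108). Smad3, the receptor-activated Smad most tied to matrix genes, was at 81.3 to 94.2 CPM in Ctrl (median 92.2) and 54.3 to 87.3 with CoCM (median 78.7). It too had 5 of 6 CoCM animals below the Ctrl range, with a log2 fold change of -0.27 ± 0.14 (edgeR p = 0.0637, adjusted p = 0.437; exact permutation p = 0.00433). Smad2, its close relative, differed less, with means of 43.9 ± 2.18 and 40.6 ± 2.44 CPM and a log2 fold change of -0.11 ± 0.06 (adjusted p = 0.446). Without the 4 animals apart the values were -0.17 ± 0.08 for Smad4, -0.21 ± 0.12 for Smad3 and -0.14 ± 0.07 for Smad2.

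The ligands and the inhibitory Smads were not separated from Ctrl by CoCM. The log2 fold change was -0.35 ± 0.38 for Tgfb1, -0.54 ± 0.39 for Tgfb2 and -0.22 ± 0.43 for Tgfb3, with adjusted p-values of 0.537 to 0.818. Without the 4 animals apart these were -0.16 ± 0.22, -0.38 ± 0.22 and -0.05 ± 0.32. Smad6 (-0.14 ± 0.15) and Smad7 (-0.10 ± 0.08), the feedback inhibitors, had intervals of -0.45 to 0.16 and -0.27 to 0.07, and gave -0.20 ± 0.16 and -0.16 ± 0.08 without the animals apart. By sign alone all 10 members had a lower estimate with CoCM, with a median of -0.25, while 48.6% of all genes were lower and their median was 0.009.

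**Figure D3:**
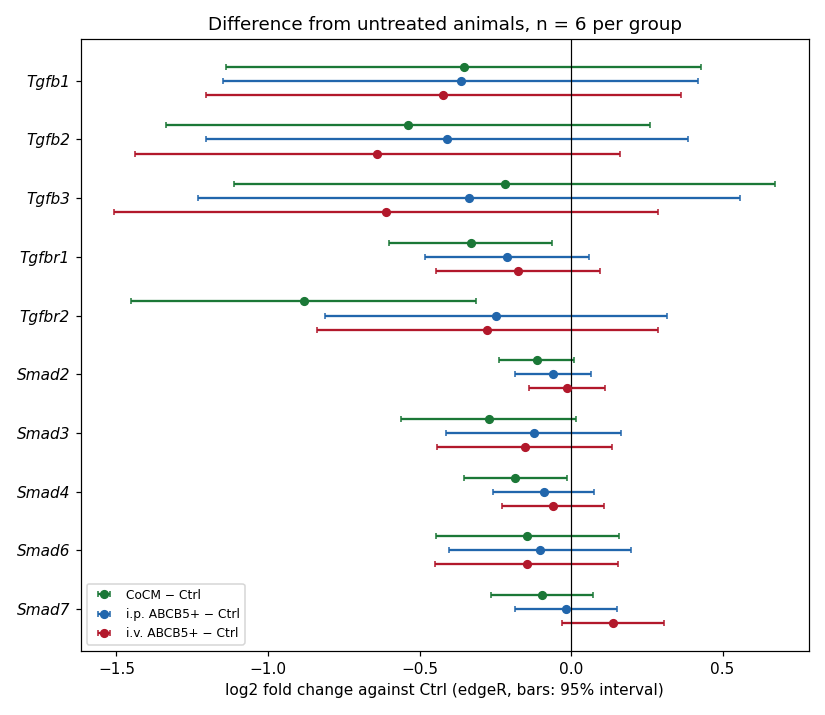
Log2 fold change of each gene against Ctrl in edgeR, with 95% intervals, for each of the 3 treated groups (6 animals per group). Tgfbr2, Tgfbr1 and Smad4 with CoCM are the 3 estimates whose unadjusted interval does not reach 0, and the intervals of the ligands are the widest.

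With i.p. ABCB5+ cells, all 10 estimates were again below Ctrl by sign, at a median log2 fold change of -0.17, against 49.0% of all genes and a median of 0.004. No member approached the threshold, since the smallest adjusted p was 0.978. Tgfb1 ran from 45.8 to 165.2 CPM (median 130.4) and Tgfb2 from 16.0 to 89.5 (median 42.2), and both overlapped the Ctrl animals. Their log2 fold changes were -0.36 ± 0.38 and -0.41 ± 0.38, and -0.18 ± 0.22 and -0.22 ± 0.22 without the animals apart. Tgfbr2 ran from 51.6 to 122.2 CPM (median 69.9), with a log2 fold change of -0.25 ± 0.27, and -0.14 ± 0.24 without the animals apart. The 5 Smads lay between -0.12 for Smad3 and -0.02 for Smad7, and without those animals between -0.13 for Smad6 and -0.04 for Smad3.

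With i.v. ABCB5+ cells, 9 of 10 members had a lower estimate, at a median log2 fold change of -0.16, against 47.4% of all genes and a median of 0.013. The estimates were most negative for the ligands, with -0.64 ± 0.39 for Tgfb2, -0.61 ± 0.43 for Tgfb3 and -0.42 ± 0.38 for Tgfb1 (adjusted p of 0.673 to 0.706). This group held 2 of the 4 animals apart, and without them the values were -0.24 ± 0.24, -0.27 ± 0.34 and -0.06 ± 0.23. With all animals, 9 of 9 fibroblast and myofibroblast and 9 of 9 macrophage markers were lower by sign (medians -0.575 and -0.527). Of the proximal tubule markers 1 of 9 was lower (median 0.687). The part of these cell types in the ligand estimates was not tested. Smad7, which blocks the type I receptor, was the only member with a higher mean, at 89.5 ± 9.79 CPM against 81.4 ± 5.11 in Ctrl (SD, n = 6). Its log2 fold change was 0.14 ± 0.08 (adjusted p = 0.673 in edgeR; exact permutation p = 0.108), and 0.19 ± 0.08 without the animals apart (adjusted p = 1.0). Without those animals, 7 of the 10 members stayed below 0 by sign.

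Between the routes, i.p. and i.v. cells differed for 0 of the 10 genes, where 0.0% of all genes were called and 2.14% had an unadjusted p under 0.05. The log2 fold changes of i.p. over i.v. ran from -0.16 for Smad7 (95% interval -0.32 to 0.01) to 0.28 for Tgfb3 (-0.62 to 1.17). The interval for Tgfb1 was -0.72 to 0.84 and that for Tgfbr2 -0.54 to 0.59, so differences up to these sizes in either direction were not excluded with 6 animals per route. For Smad2 the interval was narrower, at -0.17 to 0.08. Without the 4 animals apart the estimates ran from -0.23 for Smad7 (-0.41 to -0.05, adjusted p = 1.0 in edgeR) to 0.14 for Tgfb3 (-0.60 to 0.88).

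Across the 20 animals not apart, the receptors varied with Smad3 and Smad4. Among the 45 pairs of members, 10 passed an adjusted permutation p of 0.05 for Pearson's r of log2 CPM, and all 10 were positive. The share of such pairs among all genes was not computed, so this count has no background beside it. Tgfbr1 and Smad4 gave r = 0.904 and rho = 0.862, Tgfbr2 and Smad4 r = 0.871 and rho = 0.874, and Smad3 and Smad4 r = 0.824 and rho = 0.830 (adjusted permutation p = 0.00015 for each r). The raw p of these pairs, 1e-05, was the smallest that the 100000 resamples could give. Tgfbr2 and Smad3 (r = 0.803, rho = 0.901), Tgfbr1 and Tgfbr2 (r = 0.799, rho = 0.770) and Tgfbr1 and Smad3 (r = 0.783, rho = 0.799) closed a block of 4 genes, with adjusted permutation p-values of 0.00027, 0.000225 and 0.0003. Without the 2 animals farthest from the median, r in this block was 0.690 to 0.862. With each group's mean removed it was 0.721 to 0.869, so the block was also present within groups. Smad2, the other Smad that the receptor phosphorylates, did not pass with either receptor, at r = 0.521 to Tgfbr1 and 0.453 to Tgfbr2 (adjusted permutation p = 0.0565 and 0.106). With group means removed these were 0.305 and 0.167, but on the log2(TPM + 1) scale they were 0.821 and 0.759. The distance of Smad2 from the receptors thus depended on the scale. With group means removed 10 pairs passed again, of which 9 were positive and 1 negative. The negative pair was Smad2 and Smad6 (r = -0.602, adjusted permutation p = 0.0289), which gave r = -0.400 (adjusted permutation p = 0.168) with group means kept. On the log2(TPM + 1) scale the r of this pair was 0.052.

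The ligands were more loosely related to each other. Tgfb1 and Tgfb2 did not pass, at r = 0.533 and rho = 0.505 (adjusted permutation p = 0.0522). Tgfb1 and Tgfb3 gave r = 0.645 and rho = 0.593 (adjusted permutation p = 0.0111), and Tgfb2 and Tgfb3 r = 0.565 and rho = 0.552 (adjusted permutation p = 0.0497). Without the 2 farthest animals these fell to 0.510 and 0.318, so the latter rests on those animals. No relation of Tgfb1 to the receptors was detectable with 20 animals, at r = 0.117 to Tgfbr2 and 0.114 to Tgfbr1 (adjusted permutation p = 0.704 for both). Tgfb2 also passed with Smad3 of the other block (r = 0.638, rho = 0.621, adjusted permutation p = 0.0162), at a higher r than with either other ligand. Without the 2 farthest animals this r was 0.4997. Smad2 and Smad7 were the remaining pair (r = 0.628, rho = 0.553; adjusted permutation p = 0.0162), at 0.382 without the 2 farthest animals, and it no longer passed with group means removed (r = 0.494, adjusted permutation p = 0.0998). On the log2(TPM + 1) scale 24 of 45 pairs passed, all of them positive.

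**Figure D4:**
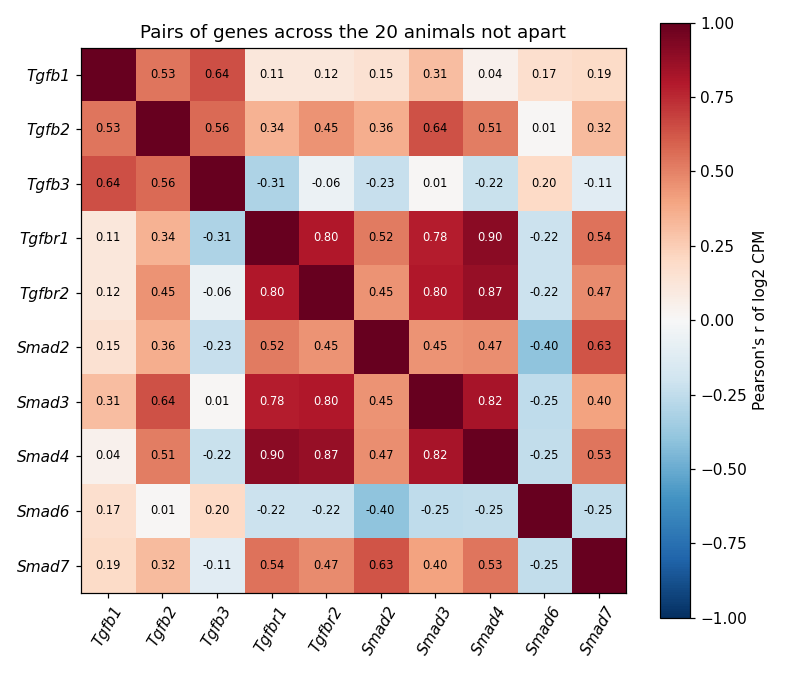
Pearson's r of log2 CPM for each pair of the 10 genes across the 20 animals not apart, from -1 (blue) to 1 (red). Tgfbr1, Tgfbr2, Smad3 and Smad4 form a block with r from 0.783 to 0.904, and Tgfb1 has r of 0.117 or less with both receptors.

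The genes with the pattern most like each ligand across the same 20 animals were ranked among 11762 genes, as a description with no test. For Tgfb1 these were Was (r = 0.970), the actin regulator of blood cells, Ppp1r18 (0.968) and Scara3 (0.957). For Tgfb2 they were Col4a1 (0.893), a basement membrane collagen chain, Pxdn (0.888), which crosslinks that collagen, and Ltbp2 (0.887), a relative of the latent TGF-beta binding proteins. For Tgfb3 they were Plekha4 (0.940), Anxa6 (0.884) and 6330403K07Rikl (0.880).

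Beyond the members, 97 pathway genes were listed, 91 were found in the files and 88 passed the filter. None of the 88 was called in any comparison. With CoCM 11 were lower and 0 higher at an unadjusted p under 0.05, beside 763 lower and 762 higher among all genes. All 12 genes for latency and activation of the ligands had a lower estimate with CoCM (median log2 fold change -0.40, 2 at an unadjusted p under 0.05). Ltbp1, which tethers latent ligand to the matrix, was at 43.6 ± 11.9 CPM with CoCM and 54.6 ± 5.69 in Ctrl (log2 fold change -0.32 ± 0.15, adjusted p = 0.399 in edgeR), and Thbs1, an activator of latent ligand, gave -0.67 ± 0.50 (adjusted p = 0.553). Ltbp1 gave -0.27 ± 0.16 and Thbs1 -0.505 ± 0.40 without the 4 animals apart. The value of Thbs1 was -1.25 when CoCM animal 40 was left out.

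Of the 7 co-receptors, 6 had a lower estimate with CoCM. Tgfbr3, betaglycan, which presents the ligand to the type II receptor, was at 22.9 ± 9.34 CPM with CoCM and 38.2 ± 6.85 in Ctrl (log2 fold change -0.74 ± 0.28, edgeR adjusted p = 0.366; exact permutation p = 0.0108), with 4 of 6 animals below the Ctrl range. Nrp1, which binds both TGF-beta and vascular endothelial growth factor, was at 40.4 ± 11.3 against 66.1 ± 13.2 CPM (-0.71 ± 0.24, adjusted p = 0.319), with 5 of 6 animals below the Ctrl range. Eng, endoglin of endothelial cells, gave -0.33 ± 0.17 (adjusted p = 0.434). Without the 4 animals apart the values were -0.845 ± 0.285 for Tgfbr3, -0.77 ± 0.23 for Nrp1 and -0.24 ± 0.16 for Eng. The marker sums given for the receptors apply here as well.

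Among regulators of the Smads, 9 of 11 had a lower estimate. Smurf2, a ubiquitin ligase that turns over Smads and receptors, was at 80.6 ± 4.45 CPM with CoCM and 94.7 ± 6.42 in Ctrl (log2 fold change -0.23 ± 0.08, adjusted p = 0.308 in edgeR; exact permutation p = 0.00433). Pmepa1, a direct feedback target, was at 161.2 ± 34.99 against 160.6 ± 33.9 CPM. In the branch of bone morphogenetic proteins and activins, 16 of 24 were lower by sign. Acvr1, a type I receptor of that branch, had the smallest p of the pathway lists with CoCM, at 16.5 ± 2.98 against 22.7 ± 4.47 CPM (-0.46 ± 0.14, adjusted p = 0.255 in edgeR; exact permutation p = 0.0152). Bmp7 (-0.07 ± 0.13) and its target Id1 (0.07 ± 0.18) had estimates near 0. With the 4 animals apart left out these genes gave -0.25 ± 0.08 for Smurf2, 0.10 ± 0.12 for Pmepa1, -0.48 ± 0.15 for Acvr1, -0.16 ± 0.07 for Bmp7 (adjusted p = 0.242) and 0.004 ± 0.18 for Id1.

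The targets of the pathway did not follow a single direction with CoCM. Of 20 matrix and contractile targets 15 had a lower estimate (median log2 fold change -0.46), 1 of them at an unadjusted p under 0.05. Fn1 was at 200.8 ± 131.0 CPM against 333.0 ± 138.2 (-0.73 ± 0.45, adjusted p = 0.490 in edgeR), and Col1a1 at 288.8 ± 204.6 against 386.1 ± 184.5 (-0.42 ± 0.52). These were -0.53 ± 0.32 and -0.19 ± 0.31 without the 4 animals apart. Single animals moved Col1a1 by more than that, since its value was -0.14 without Ctrl animal 1 and -0.77 without CoCM animal 40, and Fn1 was at -0.48 and -1.06 without the same animals. The marker sums given for the receptors apply to these targets too, and Col1a1 is itself in the fibroblast list. The early direct target Ccn2 (0.11 ± 0.36) had a higher mean, and Tgfbi gave 0.24 ± 0.31, at 0.21 ± 0.38 and 0.18 ± 0.22 without the 4 animals apart. CoCM animal 40 was at 1159 CPM for Ccn2 against 201.8 to 510.8 in the other 5 CoCM animals. On the TPM scale and with voom quality weights the estimate of Ccn2 turned negative, as it did without that animal (-0.32). Of 14 transcription factor and cell cycle targets 10 were lower by sign.

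**Figure D5:**
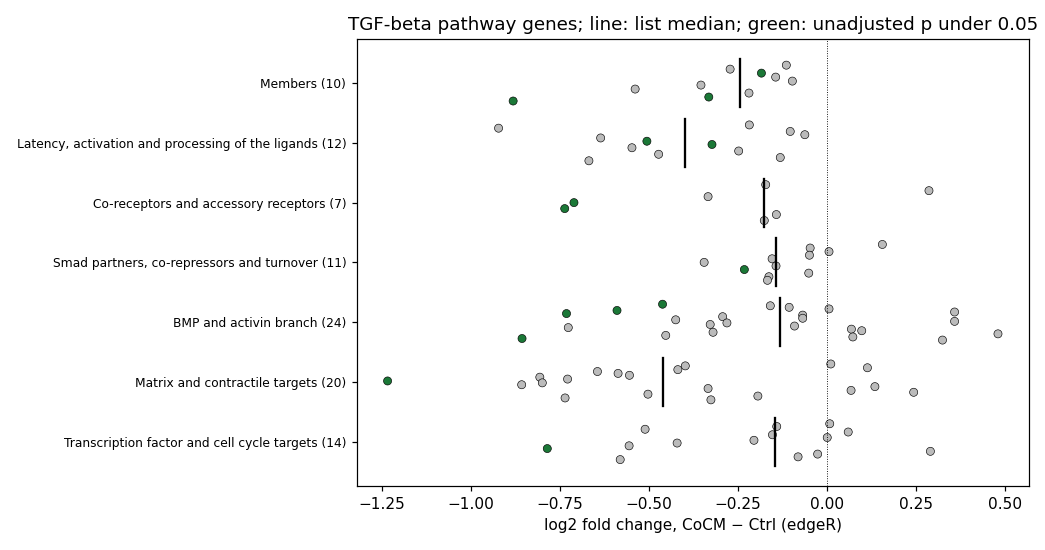
Log2 fold change of CoCM over Ctrl in edgeR for the 10 members and the 88 other pathway genes by list, 1 point per gene, with a line at each list's median and green points at an unadjusted p under 0.05. The 14 green points lie below 0, and no point passed the adjusted threshold.

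The other pathway genes were then compared under the cell treatments. With i.p. ABCB5+ 0 of 88 had an unadjusted p under 0.05. With i.v. ABCB5+ 0 were lower and 4 higher, where 1.34% of all genes were lower and 4.44% higher (171 and 567 of 12778), so the count of higher genes was near that background. By sign alone, 61 of 88 were lower under each route, against 49.0% of all genes with i.p. and 47.4% with i.v. cells. Matrix and contractile targets were lower in 18 of 20 under each route (median log2 fold changes -0.395 and -0.564). In the bone morphogenetic protein and activin branch, 9 of 24 were lower with i.p. and 13 of 24 with i.v. cells. The animals apart are included in these counts. Jun, a component of AP-1 that Smads bind, was at 386.3 to 509.8 CPM with i.v. cells (median 443.8) and 278.1 to 342.1 in Ctrl (median 311.9), so these groups did not overlap. Its log2 fold change was 0.49 ± 0.14 (p = 0.00216, adjusted p = 0.673 in edgeR), and the exact permutation p of 0.00216 was the smallest that 6 against 6 allows. Chrd, chordin, which sequesters bone morphogenetic proteins, gave 0.59 ± 0.21, and Id4 0.92 ± 0.36, both at an adjusted p of 0.673. Without the animals apart Chrd gave 0.35 ± 0.22. Id4 rested on the animals apart, since its value was 0.01 ± 0.24 without them, while that of Jun was 0.42 ± 0.16. Between the routes Jun was lower with i.p. cells by a log2 fold change of -0.64 ± 0.14 (edgeR p = 0.00016, adjusted p = 1.0; exact permutation p = 0.00216), and by -0.53 ± 0.17 without the animals apart. Jun had been named for its p with i.v. cells against Ctrl, and the same i.v. animals entered the comparison of routes. Its p-values between the routes therefore partly restate that choice and are no separate support. In all, 4 pathway genes were lower and 2 higher at an unadjusted p under 0.05 between the routes, beside 186 lower (1.46%) and 88 higher (0.689%) among all genes.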

How the data were processed

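RNA of the whole left kidney of 24 PKD/Mhm (Cy/+) rats was sequenced on a BGISEQ-500. For each animal the authors deposited estimated counts (not normalized, 86.4% to 87.3% of them whole) and TPM values (scaled for transcript length, summing to 964191 to 976409), for 17334 Entrez identifiers. The submitters' processing notes name Trim Galore 0.6.4, kallisto 0.4.6 and build rn6, while the methods of the study cite human transcript annotation (hg19) and DESeq2. Symbols came from RefSeq (GRCr8; 17179 matched). Estimated counts were rounded, filtered with filterByExpr (12778 genes left) and scaled by TMM (edgeR 4.0.16, R 4.3.3). The quasi-likelihood test was fitted to all 24 animals with 1 mean per group and adjusted over all genes (threshold 0.05). The fit was tested on simulated data. Single genes were also compared by two-sided exact permutation tests (scipy 1.17.1). Correlations used 100000 resamples, adjusted over 45 pairs.

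Groups came from the labels, and replicates are separate animals. Members and gene lists were chosen with earlier results of these data known. Named were all members, 11 fixed pathway genes (of 2 others of that list, Skil had no match among the symbols and 1 is not reported here), up to 3 genes per direction with the smallest unadjusted p in each comparison with Ctrl, and the 3 genes most like each ligand. Alternatives were median-ratio size factors, other count filters, DESeq2 1.42.0, only the groups compared, limma 3.58.1 on log2 TPM or with voom quality weights, leaving out each animal, and leaving out the 4 apart. A count of 3, taken as the floor, was 0.322 CPM in the smallest library. Precision is limited by the spread between animals (common biological coefficient of variation 0.299).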

Additional observations from a re-analysis of the deposited data

Results flagged for a closer look

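In 12 of 108 pairs of gene and group, 1 of the 6 animals lay far outside the others, where chance gives about 1 in 20. Of these, 4 concerned the ligands, receptors and Smads. Tgfb1 was at 45.79 CPM in i.p. animal 38, which stood apart, against 128.3 to 165.2 in the other 5. Ctrl animal 1 was high for Tgfb2 (98.11 CPM against 41.58 to 61.53) and for Tgfb3 (91.11 against 21.59 to 39.49). Smad6 was at 11.14 CPM in i.v. animal 43, against 18.76 to 21.46.

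Among the other named genes, CoCM animal 40 was high for Ccn2 (1159 CPM), Thbs1 (520.3) and Jun (489.0). The i.p. animal 29 was high for Ccn2 (561.9) and Eng (387.9). Ctrl animal 1 was also high for Col1a1 (730.4). Bmp7 was high in CoCM animal 39 (145.3) and i.p. animal 38 (192.7), both of which stood apart.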

How the results depend on the processing

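No paired analysis was possible because no animal number occurs in more than 1 group. The count of members called was 0 in every comparison and alternative except 1, Tgfbr2, for CoCM with voom quality weights. Called pairs were 24 in place of 10 with log2(TPM + 1). With group means removed they were 10 again, 1 of them negative. With CoCM, DESeq2 called 78 genes and the voom fit 184, against 1 in the reported fit and 0 in both TPM fits, in the fit to only the groups compared and without the 4 animals. The cause was not tested in any of these. On TPM the median log2 fold change of all genes with CoCM was -0.097 and -0.108 (pseudocounts 1 and 0.1), against 0.009 in the reported fit.

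Estimates near 0 turned sign, none of them past the threshold. With CoCM, on TPM with pseudocounts 1 and 0.1, Ccn2 was -0.141 and -0.142, Pmepa1 -0.113 for both, and Id1 -0.065 and -0.066. Pmepa1 was -0.003 with median-ratio factors and DESeq2, and -0.002 with at least 10 counts in every sample. With voom weights Ccn2 was -0.306. With i.v. cells, under voom weights and without the 4 animals, Smad2 was 0.006 and 0.013 and Smad4 0.011 and 0.016. Between routes, in the same order, Tgfb1 was -0.054 and -0.128 and Tgfbr2 -0.299 and -0.122, while Tgfb2 (-0.227) and Smad3 (-0.082) turned with voom weights.

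Leaving out 1 animal at a time gave, with CoCM, -0.617 to 0.155 for Tgfb3, -0.32 to 0.277 for Ccn2, -0.064 to 0.144 for Id1 and -0.07 to 0.116 for Pmepa1. With i.p. cells it gave -0.504 to 0.036 for Tgfb3 and -0.063 to 0.006 for Smad7, and with i.v. cells -0.058 to 0.017 for Smad2. Between routes it gave -0.107 to 0.268 for Tgfb1, -0.061 to 0.405 for Tgfb2, -0.124 to 0.036 for Tgfbr1, -0.125 to 0.228 for Tgfbr2, -0.1 to 0.107 for Smad3, -0.083 to 0.005 for Smad4 and -0.064 to 0.092 for Smad6. No member or other pathway gene was called on leaving out any animal. Over all genes, the calls with CoCM went from 1 to 0 without CoCM animal 26, 27 or 39 or Ctrl animal 12, 18, 22 or 24, to 31 without Ctrl animal 23 and to 2 without i.v. animal 37. Col1a1 with CoCM ran from -0.771 to -0.135.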
